A study of Mus musculus with 6 samples.

Results

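The CITED family and the paired acetyltransferases CBP and p300 were described in resting bone-marrow-derived macrophages (BMDMs) by their RNA levels. The members were taken by gene name: *Cited1*, *Cited2* and *Cited4* for the CITED proteins, *Crebbp* for CBP and *Ep300* for p300. Of these 5 genes, 4 had a row among the 22248 genes of the expression table, and 3 had a mean level high enough to be tested. *Cited1* was not analysed here. *Cited2* fell to 10.6% of its control level in CITED2-deficient BMDMs, *Ep300* rose slightly, *Crebbp* did not pass the test, and *Cited4* was close to the detection limit in both genotypes.

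CITED proteins do not bind DNA themselves. Their conserved C-terminal region binds the TAZ1 (CH1) domain of CBP and p300, a pair of closely related coactivators that acetylate histones and other proteins and bridge many transcription factors to the transcription machinery. CITED2 shares this docking surface with other TAZ1 ligands, such as HIF-1 alpha, HIF-2 alpha and STAT2, and is best known for competing with HIF-1 alpha for it. In macrophages, CBP and p300 serve as coactivators of inducible inflammatory and interferon-driven genes.

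The study asked whether loss of CITED2 changes gene expression in macrophages that have not been stimulated. Total RNA was sequenced from 3 control libraries of *Lyz2cre* mice and 3 CITED2-deficient libraries of *Cited2 fl/fl*:*Lyz2cre* mice, all of the C57BL/6 strain. Bone marrow cells were grown into BMDMs with macrophage colony-stimulating factor. The labels give postnatal week 10, and the study's methods give a younger age for the cultures. Both groups carried Cre recombinase at the *Lyz2* locus, which is active in myeloid cells, so the genotypes differed in the floxed *Cited2* alleles. Cells that had not turned on *Lyz2* could keep an intact *Cited2* gene. The sources used here do not state which bases lay between the loxP sites. The labels do not state that each library came from a separate animal, while the design text counts 3 mice. Without separate animals, the p-values would measure only the spread between these libraries.

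The reason for treating the CITED genes as 1 family lies in their 3′ coding region. The stretch aligned here encodes the end of each protein that binds TAZ1, and it is printed from the GENCODE vM21 transcripts (mm10, coding strand). Capitals mark the 64 of 117 bases that are identical in all 3 genes (54.7%).
Cited1: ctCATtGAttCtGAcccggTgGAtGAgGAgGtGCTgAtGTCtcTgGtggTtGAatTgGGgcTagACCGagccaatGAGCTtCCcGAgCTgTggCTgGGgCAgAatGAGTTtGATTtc
Cited2: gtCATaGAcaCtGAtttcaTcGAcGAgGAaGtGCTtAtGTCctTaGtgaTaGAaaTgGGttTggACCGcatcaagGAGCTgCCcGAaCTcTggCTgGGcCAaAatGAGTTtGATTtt
Cited4: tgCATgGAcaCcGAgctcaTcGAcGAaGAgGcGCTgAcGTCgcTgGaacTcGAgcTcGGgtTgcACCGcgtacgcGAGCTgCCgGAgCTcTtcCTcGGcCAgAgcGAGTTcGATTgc
The *Cited1* stretch covers codons 157 to 195 (chrX:102247484-102247600, minus strand), that of *Cited2* codons 216 to 254 of 269 (chr10:17724591-17724707, plus strand) and that of *Cited4* codons 129 to 167 of 182 (chr4:120667187-120667303, plus strand). Each stretch lies within a single coding exon. *Cited2* and *Cited4* were identical at 66.7% of these bases, *Cited1* and *Cited2* at 72.6%, and *Cited1* and *Cited4* at 63.2%. The stretch is where the best ungapped match of *Cited2* to *Cited1* overlaps that to *Cited4*, so its identity is high by choice. The match of *Cited1* to *Cited4* played no part in the choice. The longest run shared by *Cited2* and *Cited4* within their coding sequences was 10 bases, and *Cited1* and *Cited2* shared 15.

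*Crebbp* and *Ep300* encode proteins of like size, 2441 and 2412 codons, each spread over 31 exons. Their coding sequences share 1 longest run of 29 bases. It is shown because it bounds how far a read could match both coding sequences without a mismatch.
Crebbp and Ep300: tttgaacaagaaattgaccctgtcatgca
The run lies at chr16:4108064-4108092 (minus strand) in *Crebbp* and at chr15:81631797-81631825 (plus strand) in *Ep300*.

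The values are FPKM (fragments per kilobase of transcript, scaled to sequencing depth), as deposited. For 96.1% of the genes matched to GENCODE vM21 they corresponded to whole fragments within 0.02 in all 6 libraries, which gave depths of 17289286 to 18952077 fragments in the control and 22583995 to 26100410 in the CITED2-deficient libraries. FPKM + 1 was compared on the log2 scale with limma at an adjusted p threshold of 0.05, over the 11687 genes whose mean reached 1 FPKM. Values of single libraries are given in the order of replicates 1 to 3. Of the tested genes 51.3% passed, 16.7% higher and 34.6% lower in CITED2-deficient BMDMs, with a median log2 fold change of -0.10 over all tested genes. After median-ratio scaling, which centres that median near 0, 22.5% were higher and 22.0% were lower. The library values of the genotypes did not overlap for 59.9% of the tested genes. In bulk RNA, fewer cells of a type and less RNA per cell cannot be told apart. Macrophage markers were abundant in every library, with a summed FPKM of 5671 to 5724 in control and 5050 to 5160 in CITED2-deficient BMDMs (8 of 8 genes listed, 1 higher and 6 lower). *Csf1r*, the macrophage colony-stimulating factor receptor gene, was measured at 1135 ± 12.5 and 916 ± 10.5 FPKM (SD, n = 3 each). The sum hides larger changes of single markers. The mean of *Mrc1* went from 353.2 to 103.9 FPKM and that of *Itgam* from 89.7 to 50.9. *Fcgr1*, the marker that was higher, went from 172.5 to 482.4 FPKM. The summed FPKM of 8 fibroblast markers was 50.4 to 61.5 in control libraries and 577.7, 195.6 and 198.1 in CITED2-deficient replicates 1 to 3, and the 7 tested markers were all higher. Among them *Pdgfrb*, at 0.876 to 0.987 FPKM in control libraries, passed the filter on mean FPKM through the CITED2-deficient group alone. Neutrophil markers summed to 499 to 544 and 386 to 477 FPKM (7 genes, 1 higher and 4 lower of 6 tested). This sum rests mainly on *S100a8* (means of 180.0 and 137.6 FPKM) and *S100a9* (269.8 and 251.3). Steeper falls were seen in *Mpo* (16.2 to 1.95 FPKM), *Elane* (12.4 to 2.15) and *Camp* (47.0 to 23.1). The higher neutrophil marker, *Retnlg*, passed the filter in the same way as *Pdgfrb*, at 0.446 to 0.878 FPKM in control libraries. Neither *Pdgfrb* nor *Retnlg* is read as a result. B cell markers stayed between 2.07 and 3.29 in every library, with 1 of 5 tested and not past the threshold. T cell markers summed to 0.185 to 0.598 and 0.635 to 1.17, and erythroid markers to 0.170 to 1.12 and 0.126 to 0.157, with none abundant enough to be tested. The part of these cells in the results that follow was not tested, except where a value is given.

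*Cited2* (ENSMUSG00000039910, chr10:17723218-17725674, plus strand, mm10) is the targeted gene and the best known competitor of HIF-1 alpha for CBP/p300. Control libraries held 71.7, 79.3 and 75.5 FPKM of it, and CITED2-deficient libraries 9.27, 7.22 and 7.53 FPKM. Every CITED2-deficient library lay far below every control library, so the labels and the gene level match in all 6. These levels came from 2151, 2176 and 2272 fragments in the control and 374, 259 and 312 in the CITED2-deficient libraries. Although *Cited2* was the target, its transcripts were not lost altogether. The CITED2-deficient libraries kept 12.3%, 9.57% and 9.97% of the control mean, 10.6% on average. The library that kept the most, replicate 1, was also the one with the highest sum of fibroblast markers. Residual RNA from cells with an intact gene and RNA from a deleted allele cannot be told apart in these values.

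The mean *Cited2* FPKM was 75.5 ± 3.80 (SD, n = 3) in control and 8.01 ± 1.10 (SD, n = 3) in CITED2-deficient BMDMs. On the log2(FPKM + 1) scale limma gave a fold change of -3.09 with a standard error of 0.08 (95% interval -3.28 to -2.90, adjusted p = 6.58e-09). The control mean was 9.43 times the CITED2-deficient mean. *Cited2* was among the more abundant transcripts of control BMDMs, above 93.0% of all listed genes. The Cre driver locus was lower as well: *Lyz2*, which encodes lysozyme in macrophages, had 30.8, 30.6 and 32.5 FPKM in control and 9.39, 9.83 and 10.0 in CITED2-deficient libraries. Its log2 fold change by limma was -1.59, with an adjusted p of 2.33e-08. Reads of *Lyz2* may be divided with its near-identical neighbour *Lyz1*, so its level is uncertain.

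*Cited4* (ENSMUSG00000070803, chr4:120666572-120667820, plus strand), the closest relative of *Cited2* present in the table, is a CBP/p300-binding coactivator known from heart and mammary tissue. Its level was 0.381, 0.185 and 0.211 FPKM in the control libraries, compared with 0.221, 0.425 and 0.153 FPKM in the CITED2-deficient libraries. The control values lay within the range of the CITED2-deficient values, and no library reached 1 FPKM. Single libraries held 9, 4 and 5 fragments of it in the control and 7, 12 and 5 in the CITED2-deficient group. Pooled over the libraries, 18 of 55141924 control fragments and 24 of 74095016 CITED2-deficient fragments came from *Cited4*. The ratio of these rates was 0.992, with an exact 95% interval of 0.516 to 1.94 that covers counting error only. *Cited4* did not enter the main test because of its low mean. When all 22248 genes were tested with limma on log2(FPKM + 1), its log2 fold change was 0.0057, with a standard error of 0.10 and an adjusted p of 0.974. That scale understates changes of low genes, so this standard error is not the precision of the FPKM ratio. A change of *Cited4* within the interval of the rates was not detectable at this depth. With 35.8% of the listed genes below it, *Cited4* ranked low in control BMDMs, where its mean of 0.259 ± 0.107 FPKM (SD, n = 3) compared with 0.267 ± 0.142 in CITED2-deficient BMDMs.

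**Figure D1:**
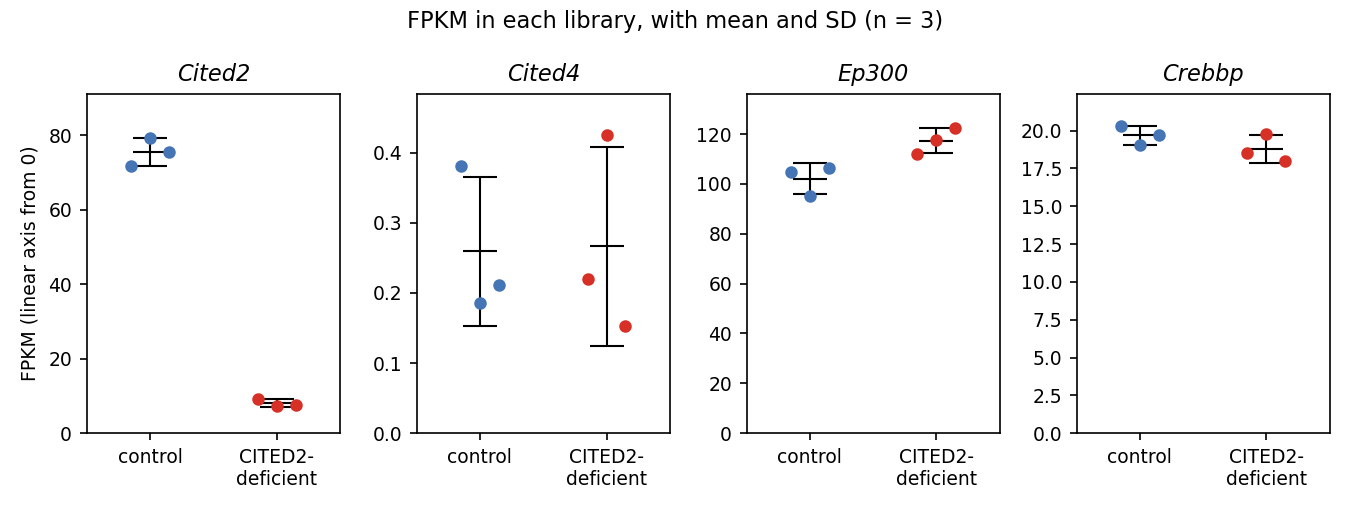
FPKM of *Cited2*, *Cited4*, *Ep300* and *Crebbp* in each library (points, replicates 1 to 3 from left to right) with the mean and SD of each genotype (n = 3) on linear axes that start at 0 and differ between genes. The CITED2-deficient libraries sit at 7.22 to 9.27 FPKM for *Cited2* against 71.7 to 79.3 in the control, the genotypes separate narrowly for *Ep300*, and they overlap for *Cited4* and *Crebbp*.

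*Ep300* (ENSMUSG00000055024, chr15:81585351-81652077, plus strand) encodes p300, which deposits acetyl groups on histone H3 at active enhancers. The control libraries had 104.7, 95.1 and 106.5 FPKM of *Ep300*, whereas the CITED2-deficient libraries had 112.2, 117.5 and 122.5 FPKM. All CITED2-deficient libraries lay above all control libraries, by a narrow margin between control replicate 3 and CITED2-deficient replicate 1. From 102.1 ± 6.14 FPKM (SD, n = 3) in control BMDMs the mean rose by 15.0%, to 117.4 ± 5.15 FPKM. By limma this was a log2 fold change of 0.20 with a standard error of 0.05 (95% interval 0.088 to 0.31, adjusted p = 0.00863). The rise was small beside the fall of *Cited2*, and it stood against a background in which 16.7% of tested genes passed as higher. Fibroblast marker sums were higher in all 3 CITED2-deficient libraries as well, and their part in the *Ep300* rise was not tested. Without CITED2-deficient replicate 1 the log2 fold change of *Ep300* was 0.23 (limma, adjusted p = 0.00704), and it ran from 0.151 to 0.233 over all libraries left out. The fibroblast sums of CITED2-deficient replicates 2 and 3, 195.6 and 198.1 FPKM, were still above the 50.4 to 61.5 of the control. Leaving out replicate 1 therefore does not test their part.

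*Crebbp* (ENSMUSG00000022521, chr16:4081328-4213997, minus strand) encodes CBP, first described as the partner of phosphorylated CREB. *Crebbp* was measured at 20.3, 19.1 and 19.7 FPKM in the control and at 18.5, 19.8 and 18.0 FPKM in the CITED2-deficient libraries. CITED2-deficient replicate 2 lay among the control values, so the genotypes overlapped. The means were 19.7 ± 0.605 and 18.8 ± 0.926 (SD, n = 3 each), with a log2 fold change by limma of -0.07 and a standard error of 0.05 (95% interval -0.19 to 0.056, adjusted p = 0.336). The interval leaves room for small changes in either direction. The sign of the *Crebbp* value turned to 0.0051 under quantile normalization and 0.026 under median-ratio scaling, and it did not pass the threshold under any alternative tried. Among the members, 2 of the 3 tested genes passed, beside 51.3% of all tested genes, and the same 2 had groups without overlap, beside 59.9%.

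**Figure D2:**
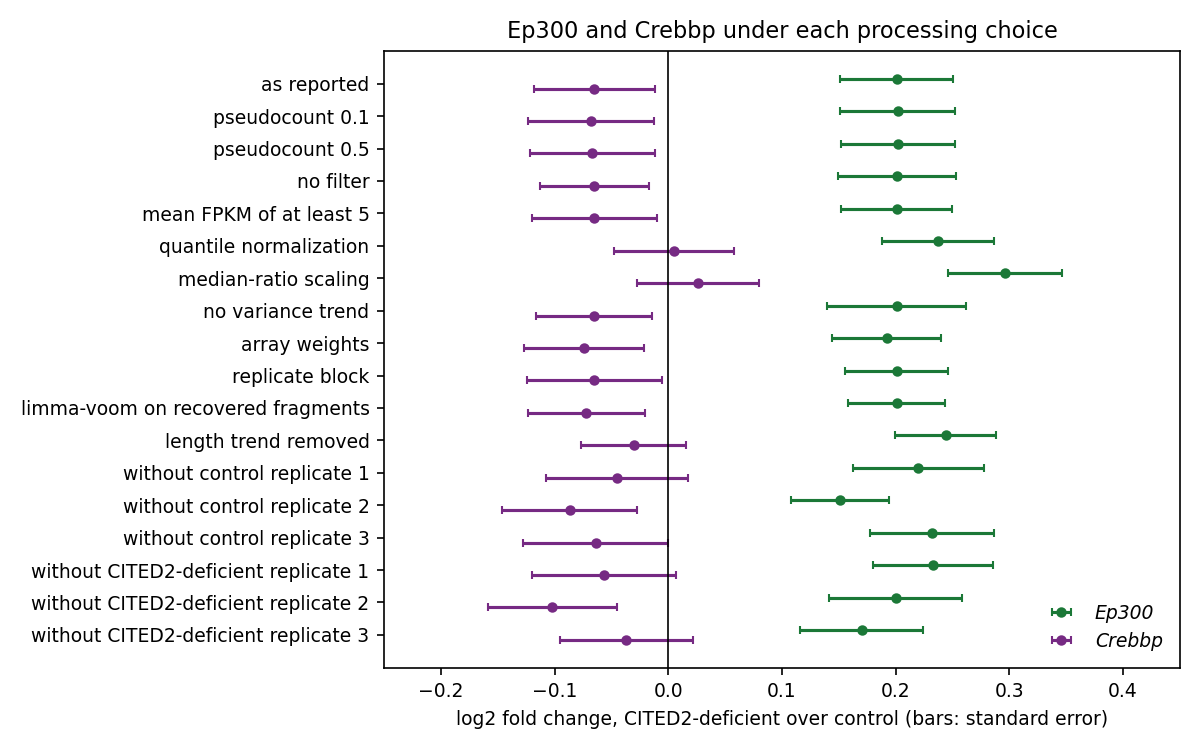
Log2 fold change of *Ep300* and *Crebbp* (CITED2-deficient over control BMDMs, points with standard error bars) as reported and under each of 17 alternative processing choices. The *Ep300* values run from 0.151 to 0.296 and lie above 0 throughout, while those of *Crebbp* run from -0.102 to 0.0264 on both sides of 0.

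The balance between the paired acetyltransferase genes was compared within each library, where the scaling between libraries cancels. The FPKM ratio of *Ep300* to *Crebbp* was 5.16, 4.99 and 5.40 in the control and 6.06, 5.93 and 6.80 in the CITED2-deficient libraries. The CITED2-deficient libraries all had the higher ratio, and the groups did not overlap. On the log2 scale the ratio was 2.37 ± 0.058 (SD, n = 3) in control and 2.64 ± 0.11 (SD, n = 3) in CITED2-deficient BMDMs. The difference of 0.27, a fold of 1.21, gave a two-sided exact permutation p of 0.1, the smallest that 3 against 3 libraries allow. The comparison therefore could not reach 0.05 at any size of effect.

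The order of the members depended on the length by which their fragments were divided. The deposited FPKM matched the mean length of all annotated transcripts of a gene, which is 2183 bases over 10 transcripts for *Ep300*, 3397 over 8 for *Crebbp*, 1588 over 3 for *Cited2* and 1249 for the single *Cited4* transcript. The longest coding transcripts are 9566, 10820, 2411 and 1249 bases. Short and retained-intron transcripts lower the means of *Ep300* and *Crebbp*. On the deposited scale the order in control BMDMs was *Ep300*, *Cited2*, *Crebbp* and *Cited4*, with no overlap between neighbours. Over the longest coding transcript *Cited2* moved above *Ep300*. The control values on that scale were 47.2, 52.2 and 49.7 for *Cited2*, 23.9, 21.7 and 24.3 for *Ep300*, and 6.37, 5.99 and 6.19 for *Crebbp*. The change of length scale alters levels between genes and leaves each gene's ratio between libraries as it is.

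**Figure D3:**
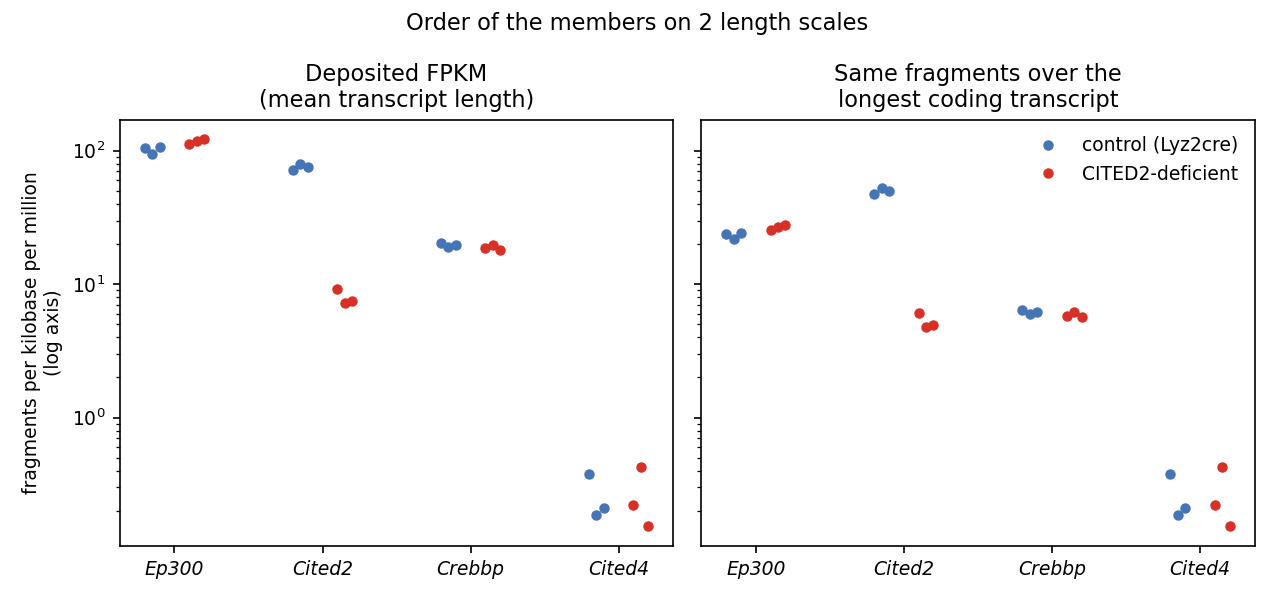
Levels of the 4 members in each library (points) on the deposited FPKM scale and as the same fragments divided by the longest coding transcript, both on a log axis. Control *Ep300* lies above control *Cited2* on the first scale, with means of 102.1 and 75.5, and below it on the second, with means of 23.3 and 49.7.

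The order was different in CITED2-deficient BMDMs. There the deposited order was *Ep300*, *Crebbp*, *Cited2* and *Cited4*, again without overlap. On the longest-transcript scale *Cited2* had 6.11, 4.76 and 4.96 in replicates 1 to 3, and *Crebbp* had 5.82, 6.22 and 5.66. These neighbours overlapped and did not differ beyond their spread, while *Ep300* stood above both at 25.6, 26.8 and 28.0. Set against the coactivator it binds, *Cited2* gave 1.98, 2.41 and 2.05 times the *Ep300* level in control libraries and 0.238, 0.177 and 0.177 times in CITED2-deficient libraries on this scale. Against *Crebbp* the corresponding ratios were 7.41, 8.72 and 8.03 in the control and 1.05, 0.765 and 0.877 after deletion. In control BMDMs *Cited2* therefore exceeded *Crebbp* on both length scales and *Ep300* only over the longest transcript. These are RNA ratios and carry no information on protein amounts.

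Genes with the pattern most like that of each tested member were listed by Pearson's r of log2(FPKM + 1) over the 6 libraries, as a description. The points share their genotype, and for *Cited2* they form separate groups by genotype, so 377 genes exceeded an r of 0.99. The most similar were *Slc11a1* (r = 0.9997), which encodes a metal transporter of macrophage phagosomes, *Sh3pxd2a* (0.9993), which encodes a podosome scaffold, and *Slc25a10* (0.9992), which encodes a mitochondrial dicarboxylate carrier. *Slc11a1* had 483.9, 489.8 and 485.4 FPKM in control libraries and 312.8, 297.7 and 304.7 in CITED2-deficient libraries. For *Ep300* they were *Eif4g1* (0.9954), a translation initiation scaffold gene, *Vps37b* (0.9937), an endosomal sorting gene, and *Ppfia1* (0.9919), a liprin gene. *Crebbp* was followed by the predicted gene *Gm20492* (0.9931), by *Fem1b* (0.9825), which encodes a ubiquitin ligase adaptor, and by *Gmcl1* (0.9801). All genes of a library share its depth and scaling.

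Genes that work with the CITED proteins and CBP/p300 were grouped by role. Of 72 named genes, 69 were in the table and 63 were tested, of which 13 were higher and 20 were lower in CITED2-deficient BMDMs. This balance depended on the scaling, since 17 were higher and 12 lower after median-ratio scaling, and 18 were higher and 11 lower with the length trend removed. The higher genes include *Lhx2*, which passed the filter on mean FPKM through the CITED2-deficient group alone. The 52.4% that passed compared with 51.3% of all tested genes, and their median log2 fold change of -0.08 with -0.10. As a set they therefore lay near the background, and the groups within it are described one by one.

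The TAZ1 partners are transcription factors that dock on the same domain as CITED2. The list also holds *Hif3a*, as a gene of the HIF alpha family. Of 7 named factors 6 were tested, 3 were higher and 1 was lower, with a list median of 0.12. The 66.7% called compared with 51.3% of all tested genes. *Stat2*, the signal carrier of type I interferon that binds TAZ1 through its activation domain, had 60.4, 56.6 and 60.9 FPKM in the control and 244.2, 268.0 and 259.8 in the CITED2-deficient libraries. Every CITED2-deficient library exceeded every control library by a wide margin. The means were 59.3 ± 2.36 and 257 ± 12.1 FPKM, and limma gave a log2 fold change of 2.10 (adjusted p = 1.45e-09), the highest among the named partners on the log2(FPKM + 1) scale. *Hif1a*, which encodes the HIF-1 alpha subunit that CITED2 competes with, went the other way. Its FPKM was 49.7, 48.0 and 49.5 in control libraries and 39.4, 39.0 and 37.7 in CITED2-deficient libraries, without overlap, with a log2 fold change of -0.33 (limma, adjusted p = 8.56e-05). The fall remained past the threshold under median-ratio scaling, at -0.24. *Epas1*, which encodes HIF-2 alpha, had 12.5 ± 0.647 and 12.8 ± 0.498 FPKM (log2 fold change 0.026, limma adjusted p = 0.746). *Rela*, the p65 subunit of NF-kB, had 60.4 ± 0.275 and 60.3 ± 3.10 FPKM and did not pass (limma, adjusted p = 0.955), except with the length trend removed (log2 fold change 0.112, adjusted p = 0.0391). *Ets1*, a transcription factor prominent in lymphoid cells, rose from 10.5 ± 0.080 to 15.2 ± 1.10 FPKM (log2 fold change 0.49). *Trp53*, which encodes p53, rose from 32.5 ± 1.68 to 37.7 ± 0.578 FPKM (log2 fold change 0.21). *Hif3a* was below the level for testing, at 0.022, 0.098 and 0.022 FPKM in control libraries and at 0 in every CITED2-deficient library. Both groups were thus near the floor.

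The CITED2 partners are factors that CITED2 is known to bind or coactivate directly. Of 12 named, 9 were in the table and 6 were tested, of which 2 were higher and none was lower by limma. That is 33.3% called, beside 51.3% of all tested genes. At an unadjusted p under 0.05 none of the 6 was lower, and limma-voom, which covered 5 of them without *Smad2*, called none lower. *Pparg*, the nuclear receptor of lipid handling, had 52.3, 61.4 and 55.5 FPKM in the control and 64.5, 69.6 and 68.6 in the CITED2-deficient libraries, without overlap. Its log2 fold change was 0.26 (limma, adjusted p = 0.00535). *Lhx2*, a LIM homeobox transcription factor gene, had 0.0915, 0.650 and 0.182 FPKM in control libraries and 1.94, 2.41 and 2.38 in CITED2-deficient libraries. It passed the filter on mean FPKM through the CITED2-deficient group alone, so its values are a description and its place among the 2 higher genes is not read as a result. Fibroblast marker sums were also higher in all 3 CITED2-deficient libraries, and their part in the *Lhx2* values was not tested. *Smad2* (log2 fold change -0.11), *Smad3* (0.063), *Myc* (-0.13) and *Kat2a* (0.060) did not pass, and *Kat2a* passed only with the length trend removed (0.168). *Tfap2a*, whose AP-2 protein needs CITED2 in development, was at 0.081 and 0.071 FPKM, and *Ppara* and *Hnf4a* were at or near 0. *Tfap2b*, *Tfap2c* and *Wt1* were not analysed here.

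Among 17 other transcription factors and coactivators that bind CBP/p300, 16 were tested, 4 were higher and 6 were lower. The share called was 62.5%, against 51.3% of all tested genes. With median-ratio scaling the split was 6 higher and 4 lower. *Jun*, an AP-1 subunit, rose from 44.4 ± 1.39 to 70.5 ± 4.57 FPKM, and *Ncoa1*, a nuclear receptor coactivator, from 24.9 ± 0.809 to 28.5 ± 0.882 FPKM. The steepest falls were in *Crtc3*, a CREB coactivator (22.0 ± 0.482 to 15.4 ± 0.10 FPKM, log2 fold change -0.49), *Irf3*, a factor that starts type I interferon transcription (52.6 ± 2.98 to 39.8 ± 1.80, -0.39), and *Foxo3* (48.8 ± 1.22 to 37.1 ± 0.748, -0.39). *Creb1*, which encodes the factor that gave CBP its name, also fell, with a log2 fold change of -0.37 (limma, adjusted p = 0.000325). It was named for that role after its value was seen. *Myb* was too low to be tested, at 0.787 ± 0.078 and 0.394 ± 0.095 FPKM.

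Few of the other histone acetyltransferase genes passed the test. Of 9 tested with limma, 2 were higher, none was lower and 7 did not pass, so 22.2% were called beside 51.3% of all genes. The count depended on the scaling. With median-ratio scaling or quantile normalization 3 were higher, and 4 were with the length trend removed. At an unadjusted p under 0.05, 1 was lower, and limma-voom called none of the 8 it covered lower. At the adjusted threshold 1 was lower without control replicate 2, and also 1 without control replicate 3. *Kat2b*, which encodes the p300-associated factor PCAF, went from 49.0 ± 2.64 to 54.8 ± 1.74 FPKM, and *Kat6a* from 19.4 ± 1.05 to 22.2 ± 1.13 FPKM. Their log2 fold changes were 0.16 and 0.19, close to the 0.20 of *Ep300*. Neither passed when control replicate 2 or CITED2-deficient replicate 3 was left out, whereas *Ep300* passed whichever library was left out.

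Histone deacetylase and sirtuin genes encode proteins that remove acetyl groups. Of 18 named, 17 were tested with limma, 9 were lower, none was higher and 8 did not pass. None of the 17 was higher at an unadjusted p under 0.05, and limma-voom called none of the 16 it covered higher. The 52.9% called was near the 51.3% of all tested genes, and 34.6% of all tested genes were lower. The list median was -0.18, and after median-ratio scaling 6 were lower and the median was -0.11. The steepest falls were in *Hdac10*, a polyamine deacetylase gene (11.3 ± 1.06 to 7.71 ± 0.373 FPKM, log2 fold change -0.50), *Sirt4*, a mitochondrial sirtuin gene (8.26 ± 1.46 to 6.22 ± 0.102, -0.35), and *Hdac1*, a subunit gene of nuclear corepressor complexes. *Hdac1* had 64.0, 68.9 and 63.9 FPKM in the control and 50.7, 51.8 and 52.4 in the CITED2-deficient libraries, without overlap (log2 fold change -0.34, limma adjusted p = 0.00013). *Sirt4* did not pass after median-ratio scaling (-0.26) or without control replicate 3, its highest library at 9.93 FPKM (log2 fold change -0.22, limma adjusted p = 0.053). *Hdac11* was below the filter on its mean, with 1.67, 1.30 and 1.56 FPKM in control and 0.240, 0.722 and 0.390 in CITED2-deficient libraries, and was not tested.

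Enhancer cofactors that act beside CBP/p300, namely bromodomain readers, histone methylation enzymes and Mediator subunits, were split. All 10 were tested, 2 were higher and 4 were lower, and median-ratio scaling turned this to 3 higher and 1 lower. On the deposited scale 60.0% were called, beside 51.3% of all tested genes. *Med1*, the Mediator subunit that contacts nuclear receptors, had 18.5, 16.8 and 17.7 FPKM in control libraries and 23.6, 22.0 and 23.2 in CITED2-deficient libraries (log2 fold change 0.36, limma adjusted p = 0.000482). *Brd2*, a reader of acetylated histones, rose from 167 ± 5.75 to 182 ± 2.30 FPKM. *Med25*, a Mediator subunit gene, fell from 45.0 ± 2.48 to 37.8 ± 1.16 FPKM and remained lower under median-ratio scaling, at a log2 fold change of -0.15. *Kdm6a*, which encodes a histone H3 lysine demethylase, and *Brd3* had log2 fold changes of -0.18 each and did not pass after median-ratio scaling.

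**Figure D4:**
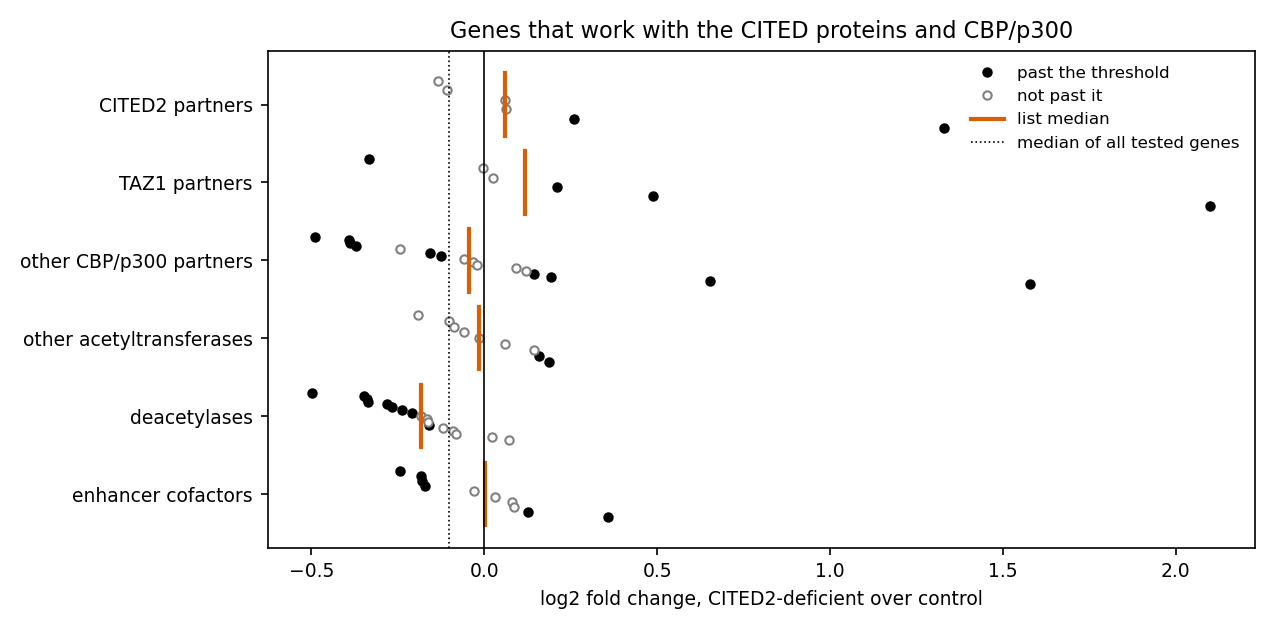
Log2 fold change (CITED2-deficient over control BMDMs) of each tested gene that works with the CITED proteins and CBP/p300, in 6 lists by role, with filled points past the adjusted p threshold of 0.05, open points not past it, and a bar at each list median. *Stat2* lies farthest to the right at 2.10, and the deacetylase median of -0.18 lies left of the dotted median of all tested genes at -0.10.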

How the data were processed

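RNA was measured in 6 BMDM libraries, 3 per genotype. The authors selected RNA by integrity, removed ribosomal RNA, prepared stranded libraries and aligned the reads to mm10 by STAR. They ran Cuffdiff with the GENCODE annotation to obtain FPKM. FPKM per gene and library were deposited, and whether Cuffdiff wrote these values was not tested. Replicates were not pooled. STAR, Cufflinks and Cuffdiff are listed in the submitters' processing notes, with versions and annotation release not given in the sources used here. Numbers of fragments were derived from FPKM, depth and each gene's mean GENCODE vM21 transcript length (22220 genes matched). The deficient libraries were on average 1.34 times as deep. Replicates differed by more than sampling noise (mean chi-square per gene 2.21 to 5.51), so none was a duplicate.

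The members and lists were chosen with earlier results of these data known. Log2(FPKM + 1) was compared by limma 3.58.1 (R 4.3.3), letting the variance follow a trend with level, and p-values were adjusted by Benjamini-Hochberg over all genes whose mean FPKM was at least 1, a scale that understates changes of low genes. Cuffdiff's own test was not repeated. The fit was tested on simulated data. Ratios were compared by an exact permutation test, and scripts ran in Python 3.11.15. Named genes are all members, up to 3 steepest rises and falls past the threshold per list, every tested TAZ1 and CITED2 partner, list genes below the filter, and the 3 genes most like each tested member. Of the genes under this rule, 1 is not reported here, though list counts include it. Alternatives were pseudocounts of 0.1 and 0.5, omitting the filter or raising it to 5 FPKM, quantile and median-ratio scaling, no variance trend, array weights, a replicate block, limma-voom on recovered fragments, removal of the trend with transcript length, and each library left out.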

Additional observations from a re-analysis of the deposited data

How the results depend on the processing

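The fall of *Cited2* (log2 fold change -3.19 to -3.03 without 1 library) and the rise of *Ep300* (0.151 to 0.233) passed the threshold under all 17 alternatives, as did 2 of 3 members without any 1 library. *Crebbp* (-0.102 to -0.0368 without 1 library) passed under none and changed sign under quantile normalization (0.00514) and median-ratio scaling (0.0264). The log2 difference in the *Ep300* to *Crebbp* ratio ran from 0.21 to 0.309 without 1 library. Partner genes called numbered 13 higher and 20 lower, against 17 and 12 under median-ratio scaling, 18 and 11 with the length trend removed and 16 and 14 under quantile normalization, so the balance turned. Without 1 library 11 to 13 were higher and 17 to 22 lower. Of 22 partner genes past the threshold under the naming rule, 16 kept their call in every setting that tested them, none reversed, and *Brd2*, *Brd3*, *Kat2b*, *Kat6a*, *Kdm6a* and *Sirt4* lost it in at least 1. The 16 include *Lhx2*, which passed the filter through the CITED2-deficient group alone and was not tested at 5 FPKM. Its calls are not read as a result. Of the 6 not called, *Kat2a* and *Rela* passed with the length trend removed. *Epas1* turned to -0.00908 without control replicate 2 and -0.00292 without CITED2-deficient replicate 3, and *Smad3* to -0.00907 without control replicate 3 (ranges without 1 library -0.00908 to 0.0601 and -0.00907 to 0.128). *Rela* turned to 0.024 (quantile), 0.0914 (median-ratio), 0.112 (length trend removed), 0.00045 (without control replicate 1) and 0.0383 (without CITED2-deficient replicate 2), with a low of -0.0318 without 1 library. The causes were not tested. Same-numbered libraries did not deviate together (r = 0.0138, 0.00784 and 0.0402, and not each correlated best with its own number). These values cannot tell whether same-numbered cultures were prepared together. A replicate block gave -3.09 for *Cited2*, -0.0651 for *Crebbp* and 0.201 for *Ep300* and kept 2 members called. Depth limits *Cited4*, which rested on 4 to 12 fragments per library.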
